A study of Mus musculus with 6 samples.

Results

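Neurofascin (Nfasc), its L1 family relatives and the contactins form 10 of the 55487 genes counted in the aortas of Prdm16 iSM KO and control mice. The L1 family supplied 4 of them (Nfasc, Nrcam, L1cam and Chl1) and the contactins 6 (Cntn1 to Cntn6), and each was taken from the count table by its gene name. The set was selected on measured values, because Nfasc was known from these libraries to be among the genes most lowered in iSM KO. The differences between iSM KO and control given for the 10 genes are therefore descriptions, given with standard errors and no p-value. Where the call rule or a refit is named for a member, it says only which genes the rule picks out and supports nothing. Bulk RNA-seq was performed on aortic tissue, freed of its adventitial layer, from 3 iSM KO and 3 control male mice, with 1 mouse per library. In both groups the mice were on a C57BL/6 background and carried the tamoxifen-inducible Myh11-CreERT2 transgene, which is expressed in smooth muscle cells (SMCs) and sits on the Y chromosome. Both groups received 1 mg of tamoxifen per mouse per day for 10 days from 8 weeks of age, and tissue was taken 60 days after a tamoxifen-free interval of 2 weeks. The iSM KO mice were Prdm16 F/F, with loxP sites around exon 9, and the controls were Prdm16 W/W littermates, so Cre and tamoxifen were shared by all 6 animals.

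L1 family proteins are transmembrane adhesion molecules with immunoglobulin and fibronectin domains outside the cell and a short tail inside that binds ankyrin, the adaptor to the spectrin skeleton. Contactins carry a similar outer part but are held in the membrane by a lipid anchor and signal through partners such as the Caspr (Cntnap) proteins, sodium channels and receptor phosphatases. Both families are best known from neurons and glia, where neurofascin, Nrcam and contactin 1 help to assemble the node of Ranvier and the paranodal junction.

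The tail is what separates the families at the sequence level, so the coding bases of its ankyrin-binding site are shown here for the 4 L1 genes. The stretches were read from GENCODE M21 transcripts (GRCm38, 5′ to 3′ on the coding strand), and the capitals mark the codons of the site, which spell FIGQY in Nfasc, Nrcam and L1cam and FIGAY in Chl1.
Nfasc, chr1:132570492-132570536, minus strand: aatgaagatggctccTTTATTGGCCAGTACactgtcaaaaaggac
Nrcam, chr12:44598471-44598515, plus strand: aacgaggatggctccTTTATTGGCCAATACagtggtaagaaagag
L1cam, chrX:73855107-73855151, minus strand: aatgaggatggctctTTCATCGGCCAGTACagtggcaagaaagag
Chl1, chr6:103729234-103729278, plus strand: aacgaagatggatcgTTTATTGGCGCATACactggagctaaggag
Of these 45 bases Nfasc shared 36 with Nrcam, 36 with L1cam and 33 with Chl1. The site lay in the last exon of the longest transcript of each gene that holds it, exon 30 of 30 in Nfasc, 28 of 28 in Nrcam, 27 of 27 in L1cam and 27 of 27 in Chl1. In annotated coding transcripts of the 6 contactins neither spelling occurred.

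The libraries held 24911609 to 40460467 counts, and 16565 genes were tested, those counted more than 10 times in each library of one or both groups. Prdm16, the targeted gene, measured 183, 223 and 178 CPM (counts scaled to library size with TMM factors) in controls 1 to 3 and 93.6, 113 and 79.7 in iSM KO 1 to 3. The groups did not overlap and the difference was a log2 fold change of -1.03 (SE 0.14), in the direction of the labels, and -1.17 to -0.92 when each library was left out in turn. Smooth muscle markers summed to 25940 to 31120 CPM in controls and 28200 to 30730 in iSM KO, and Myh11 and Acta2 were the most abundant of them. Of the 10 smooth muscle markers 2 rose, Des (137.7 ± 28.96 to 324.3 ± 58.49 CPM, SD, n = 3, edgeR FDR 0.00381) and Myocd (194.4 ± 28.50 to 304.7 ± 20.68 CPM, edgeR FDR 0.0109), and the FDR of Myocd was over 0.05 without iSM KO 1. In bulk tissue, fewer cells of a type and less RNA per cell cannot be told apart.

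Of the 10 genes, Nfasc and Cntn1 met the call rule (edgeR FDR below 0.05 and a fold change over 2) with lower levels in iSM KO, and none met it with higher levels. Over all tested genes the rule was met by 1.38% in the lower direction and 1.4% in the higher direction. Without the fold requirement the members' counts were again 2 lower and 0 higher, beside 3.3% and 4.26% of all tested genes. The members were chosen with this contrast known, so nothing is read from these shares. The filter on low counts was passed by 5 members, Nfasc, L1cam, Chl1, Cntn1 and Cntn6, and the other 5 (Nrcam, Cntn2, Cntn3, Cntn4 and Cntn5) were not tested. Chl1 passed it only through the control group. In 3 of the 5 tested members (Nfasc, Cntn1 and Cntn6) the CPM of the groups did not overlap, and 27.9% of all tested genes shared that property in one direction or the other. The median log2 fold change was -0.72 over the 5 tested members and -0.01 over all tested genes, with the same restriction on what can be read from it.

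**Figure D1:**
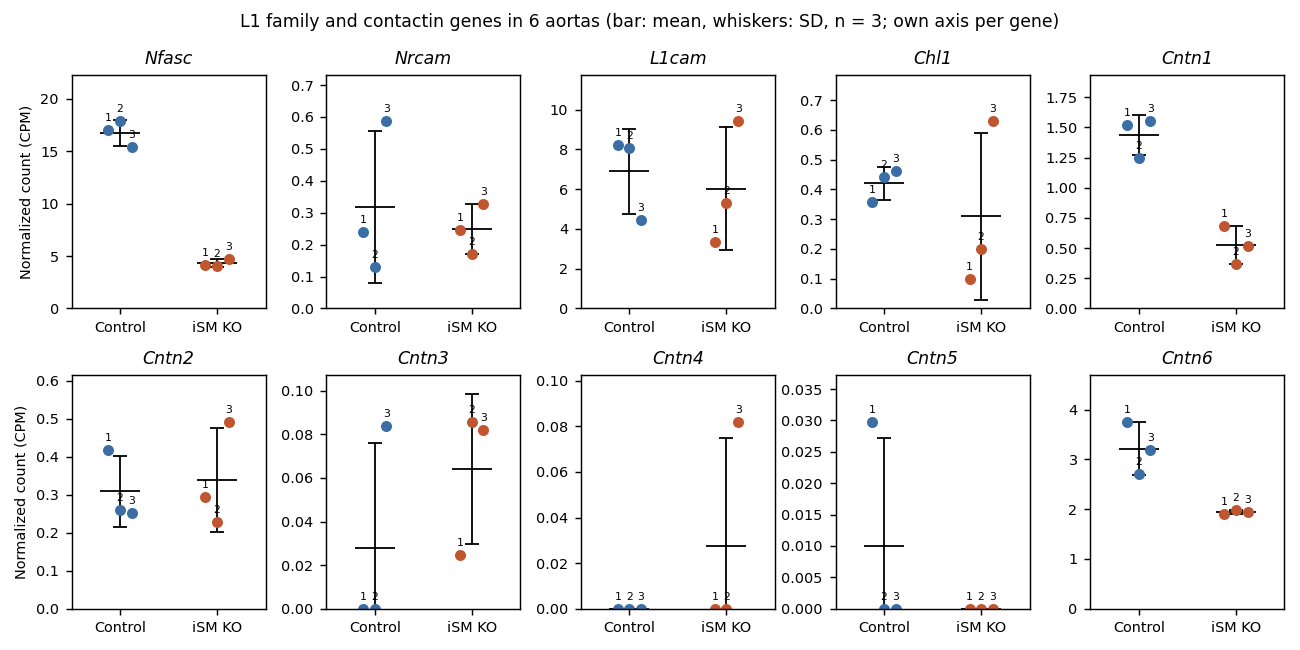
Normalized count (CPM, linear axis from 0, own scale per gene) of the 10 genes in each control (blue) and iSM KO (orange) library, with the mean (bar) and SD (whiskers, n = 3); small digits are replicate numbers. Nfasc, Cntn1 and Cntn6 separate by group, whereas L1cam and Chl1 span a wide range in iSM KO with replicate 3 highest.

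Nfasc (ENSMUSG00000026442) occupies chr1:132564690-132741797 on the minus strand of GRCm38, with 10 annotated transcripts. Its counts were 572, 687 and 367 in controls 1 to 3 and 170, 140 and 174 in iSM KO 1 to 3. On the normalized scale these were 17.1, 17.9 and 15.4 CPM in controls and 4.17, 4.01 and 4.76 CPM in iSM KO. Each iSM KO library lay far below each control library, and the spread within either group was small, with a coefficient of variation of 7.57% in controls and 9.18% in iSM KO. The means were 16.8 ± 1.27 and 4.31 ± 0.396 CPM (SD, n = 3), so controls stood 3.89 times above iSM KO, and the log2 fold change was -1.96 (SE 0.12). In controls, 61.7% of tested genes had a lower mean CPM than Nfasc, and in iSM KO 36.0% did. Leaving out each library in turn kept the log2 fold change between -2.04 and -1.91. The antisense gene Gm10538 lies within Nfasc, shares no exon bases with it and drew 19 counts over the 6 libraries. No other gene shared a stretch of at least 100 bases at 95% identity with Nfasc transcripts.

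The other L1 genes did not show this separation. L1cam (ENSMUSG00000031391, chrX:73853778-73896105, minus strand), the founding member of the family, measured 8.20, 8.06 and 4.44 CPM in controls and 3.36, 5.30 and 9.41 CPM in iSM KO. The lowest and the highest values both belonged to iSM KO libraries, so the groups overlapped throughout. Its means were 6.90 ± 2.13 and 6.02 ± 3.09 CPM (SD, n = 3). The log2 fold change of -0.21 (SE 0.36) moved to -0.69 without iSM KO 3 and to 0.08, the other sign, without iSM KO 1. L1cam shares 100 exon bases with the neighbouring Arhgap4, which drew 151 counts over the 6 libraries, and 3 further genes share stretches of near-identical sequence with it, so a part of its counts is uncertain.

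Chl1 (ENSMUSG00000030077, chr6:103510586-103750211, plus strand), the close homologue of L1, drew 12, 17 and 11 counts in controls and 4, 7 and 23 in iSM KO. In CPM this was 0.358, 0.442 and 0.461 in controls against 0.0980, 0.2003 and 0.629 in iSM KO. The control libraries were close together, while iSM KO 1 and 2 fell below all of them and iSM KO 3 above. The log2 fold change of -0.45 (SE 0.59) became -1.495 without iSM KO 3 and -0.01 without iSM KO 1, so its size depended on which library was left out. Nrcam (ENSMUSG00000020598, chr12:44328885-44601964, plus strand), which joins neurofascin at nodes, drew 8, 5 and 14 counts in controls and 10, 6 and 12 in iSM KO. At 27 counts against 28 over the groups, no difference was seen for Nrcam, and counts this low limit what could be seen.

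Among the contactins, Cntn1 and Cntn6 were the members with an appreciable count. Cntn1 (ENSMUSG00000055022, chr15:92051165-92341967, plus strand), the paranodal partner of Cntnap1 and of glial neurofascin, drew 51, 48 and 37 counts in controls and 28, 13 and 19 in iSM KO. The corresponding values were 1.52, 1.248 and 1.55 CPM in controls and 0.686, 0.372 and 0.520 CPM in iSM KO. All iSM KO libraries lay below all controls, iSM KO 1 being the highest of them, and the coefficient of variation in iSM KO was 29.9%. Means were 1.44 ± 0.167 and 0.526 ± 0.157 CPM (SD, n = 3). The control level was 2.74 times that of iSM KO, and the log2 fold change was -1.43 (SE 0.31). The direction held in all 6 fits that left out a library, with values from -1.68 to -1.246. The call itself was kept in 2 of those 6 fits, without control 2 and without iSM KO 1, and was lost without control 1, control 3, iSM KO 2 or iSM KO 3.

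Cntn6 (ENSMUSG00000030092, chr6:104492790-104863406, plus strand), known from the cerebellum and other parts of the developing brain, measured 3.76, 2.70 and 3.18 CPM in controls and 1.91, 1.98 and 1.94 CPM in iSM KO. The iSM KO libraries were nearly equal to each other and all lay below the lowest control. Means of 3.21 ± 0.528 and 1.94 ± 0.0317 CPM (SD, n = 3) gave a log2 fold change of -0.72 (SE 0.20), short of the call rule in edgeR. Its FDR passed 0.05 with DESeq2 and in the fit without control 2.

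The remaining contactins were at the edge of detection. Cntn2 (ENSMUSG00000053024, chr1:132509427-132543256, minus strand), the juxtaparanodal partner of Cntnap2, drew 14, 10 and 6 counts in controls and 12, 8 and 18 in iSM KO, and a repeat-like stretch of its transcripts is shared with 113 other genes. Cntn3 (ENSMUSG00000030075, chr6:102162655-102573101, minus strand) drew 2 counts in controls, all in control 3, and 1, 3 and 3 in iSM KO. Cntn4 (ENSMUSG00000064293, chr6:105677660-106699310, plus strand) drew its 3 counts in iSM KO 3 alone, and Cntn5 (ENSMUSG00000039488, chr9:9660891-10904775, minus strand) a single count in control 1. For these last genes no fold is given, since a library with no count allows up to 3 counts, which is 0.0735 to 0.126 CPM depending on the library.

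Several members are neighbours on a chromosome. Cntn2 is the next member downstream of Nfasc, on the same strand and 21.4 kb away, and its counts overlapped between the groups while those of Nfasc did not. On chromosome 6, Cntn3, Chl1, Cntn6 and Cntn4 follow each other with gaps of 937.5, 742.6 and 814.3 kb. Within that row the CPM of the groups were apart only for Cntn6.

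Levels of different genes were set side by side as CPM per kilobase of union exon length, a scale on which they can be ranked. In controls Nfasc stood first at 1.19 ± 0.0897 (SD, n = 3), followed by L1cam at 0.939 ± 0.290, Cntn6 at 0.495 ± 0.0812, Cntn1 at 0.153 ± 0.0177 and Chl1 at 0.0342 ± 0.00446. The libraries of Nfasc (1.09 to 1.26) and L1cam (0.604 to 1.12) overlapped, whereas L1cam, Cntn6, Cntn1 and Chl1 did not overlap with each other. With the longest transcript as the length, the controls of L1cam (0.866 to 1.60) and Cntn6 (0.730 to 1.02) overlapped. Below them Chl1, Cntn2 (0.0333) and Nrcam (0.0238) were not separated by their spread, and Cntn3, Cntn5 and Cntn4 came last. In iSM KO L1cam stood first at 0.819 ± 0.421, ahead of Nfasc at 0.305 ± 0.0280 and Cntn6 at 0.299 ± 0.00488, and the libraries of the latter genes overlapped. Nfasc and Cntn6 changed places in iSM KO when the longest transcript was used as the length. For scale, Prdm16 measured 20.9 ± 2.62 and Myh11 1024 ± 57.54 CPM per kilobase in controls.

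**Figure D2:**
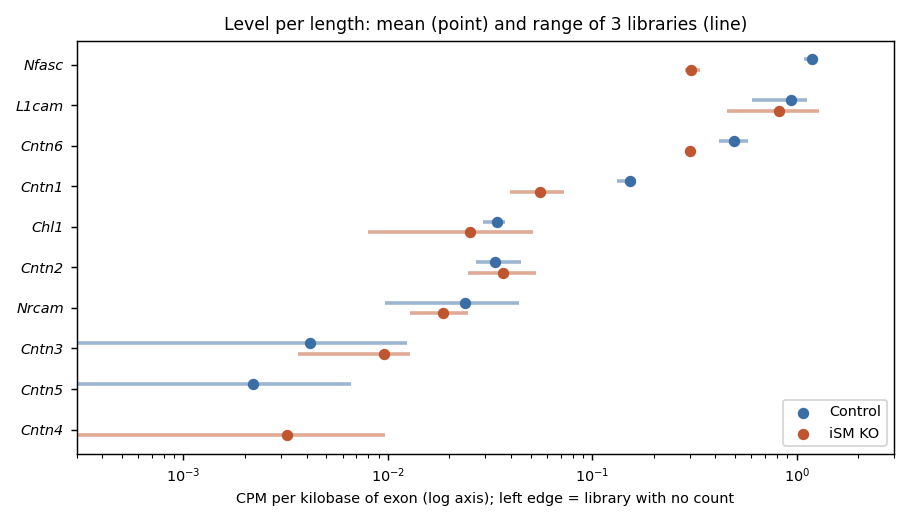
Level per length (CPM per kilobase of union exon, log axis) of the 10 genes, ordered by their control mean, with the mean (point) and the range of 3 libraries (line) for controls (blue) and iSM KO (orange); a line that runs to the left edge includes a library with no count, and a group with no count in any library has no point. Nfasc moves from 1.19 in controls to 0.305 in iSM KO, next to Cntn6 at 0.299, while the ranges of L1cam in the groups overlap.

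The genes whose profile over the 6 libraries lay nearest to that of Nfasc were found from the root mean square difference of centred log2 values (CPM plus 0.1). In increasing order of distance they were Inpp5j (0.104), an inositol phosphatase, Pdzrn4 (0.138), a PDZ and RING domain protein, Ndufs5 (0.179), a subunit of respiratory complex I, Angpt4 (0.182), a ligand of the Tek receptor, and H1f10 (0.182), a linker histone. All 5 were lower in iSM KO, with log2 fold changes of -2.01, -2.04, -1.73, -1.98 and -1.94. This likeness includes the difference between the groups that picked Nfasc. The reads of Ndufs5 may be shared with a pseudogene copy, which was not checked. No contactin or L1 gene was among them by construction, since members were left out of the search.

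Partner and related genes of the 2 families were taken as 5 lists with 88 genes in all, of which 69 were tested. They include 30 other immunoglobulin adhesion molecules, 24 of them tested, which were listed as related genes. Of the 69 tested genes 8 rose and 6 fell at an edgeR FDR below 0.05, and 55 did not pass. Over all tested genes 4.26% rose and 3.3% fell at that FDR, also the background for the counts per list below. The median log2 fold change was -0.01 over the lists beside -0.01 over all tested genes. Without iSM KO 2 the number of higher genes was 4. The call rule with its fold requirement was met by 2 higher genes (Sptb and Nrp2) and 1 lower gene (Alcam). Over all tested genes it was met by 1.4% in the higher direction and 1.38% in the lower. Some partner and related genes passed the FDR within a 2-fold change and were not among the most abundant of their list. They are named because their values were seen to pass. The ankyrins, Cntnap1, Ptprz1, Sox10 and the marker genes at 0 were also named with their values known, for what they are known to do.

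Inside the cell, 13 of 15 cytoskeletal linkers were tested, 2 rose and none fell. Sptb, a beta spectrin best known from red cells and muscle, measured 10.02, 13.51 and 11.68 CPM in controls and 32.42, 40.21 and 30.43 CPM in iSM KO. All iSM KO libraries were above all controls, a log2 fold change of 1.55 (SE 0.14, edgeR FDR 4.33e-04), and the call was kept in 6 of 6 fits that left out a library. Ezr, which ties membrane proteins to actin, rose by 0.67 on the log2 scale (edgeR FDR 0.0470), and held in 1 of those 6 fits, the one without iSM KO 1. The ankyrins and the abundant linkers did not pass the test, with log2 fold changes of 0.09 for Ank1, -0.19 for Ank2, 0.16 for Ank3, -0.21 for Sptbn1, 0.14 for Msn and 0.23 for Sptan1. Ank3, the ankyrin of nodes and axon initial segments, was at 3.56 ± 1.08 CPM in controls and 3.98 ± 0.895 in iSM KO (SD, n = 3).

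Outside the cell, 19 of 23 binding partners were tested, 4 rose and 2 fell. Nrp2, a semaphorin receptor of the family that pairs with L1 proteins, measured 10.76, 8.109 and 10.72 CPM in controls and 27.35, 20.06 and 24.20 CPM in iSM KO, a log2 fold change of 1.28 (SE 0.15, edgeR FDR 0.00146). The groups were well apart and the call was kept in 6 of 6 fits without a library. Fgfr1, a growth factor receptor that L1 proteins engage, rose from 257 ± 11.4 to 393.5 ± 7.36 CPM (SD, n = 3, edgeR FDR 0.00202). App, which binds contactins, rose by 0.41 on the log2 scale (edgeR FDR 0.0320), and its FDR was over 0.05 without any one of the iSM KO libraries. The matrix glycoprotein Tnr rose by 0.79 (edgeR FDR 0.0484), and its FDR stayed below 0.05 in 1 of 6 fits, the one without iSM KO 3, whereas Aplp2 did not pass (0.20, edgeR FDR 0.194).

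Gldn and Sema3b were the partners that fell. Gldn, or gliomedin, the nodal matrix ligand of neurofascin and Nrcam, measured 30.98, 31.73 and 37.90 CPM in controls and 22.20, 21.35 and 20.07 CPM in iSM KO. The highest iSM KO library lay below the lowest control, and the log2 fold change was -0.66 (SE 0.10, edgeR FDR 0.00539). Sema3b, a secreted semaphorin, fell by 0.69 on the log2 scale (edgeR FDR 0.00307), and both genes kept an FDR below 0.05 in 6 of 6 fits without a library. The paranodal partner of Cntn1, Cntnap1, was at 9.53 ± 0.912 CPM in controls and 9.52 ± 0.221 in iSM KO (SD, n = 3, edgeR FDR 0.999). Ptprz1, a receptor phosphatase that binds Cntn1, was at 113 ± 37.5 and 173 ± 45.7 CPM (edgeR FDR 0.214).

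Of 13 sodium channel subunits 6 were tested, 1 fell and none rose. The pore subunit Scn2a had a log2 fold change of -0.39 (edgeR FDR 0.0529) and the beta subunit Scn2b one of -0.24 (edgeR FDR 0.480). Among 7 proteases that cleave L1 proteins or mature their cleavers, Pcsk5 rose from 54.3 ± 7.94 to 85.4 ± 6.03 CPM (edgeR FDR 0.00897). Psen2 fell by 0.43 on the log2 scale (edgeR FDR 0.0443) but passed this FDR in 0 of 6 fits without a library, and Furin and Bace1 did not pass (0.02 and 0.13).

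Of 30 other immunoglobulin adhesion molecules 24 were tested, 1 rose and 2 fell. Alcam, which forms contacts between like cells, measured 50.68, 26.30 and 33.80 CPM in controls and 14.83, 16.23 and 17.47 CPM in iSM KO. Controls were spread while iSM KO libraries were tight and lower, with a log2 fold change of -1.19 (SE 0.21, edgeR FDR 0.0103) that was -0.88, under the fold requirement, without control 1. Sdk2, a sidekick adhesion protein, fell by 0.85 on the log2 scale (edgeR FDR 0.00392). Mcam, an adhesion molecule of vascular cells, rose from 528 ± 99.2 to 913 ± 77.0 CPM (edgeR FDR 0.00986), with an edgeR FDR of 0.0558 without iSM KO 2, while Bcam (log2 fold change 0.01) and Ncam1 (0.27) did not pass.

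**Figure D3:**
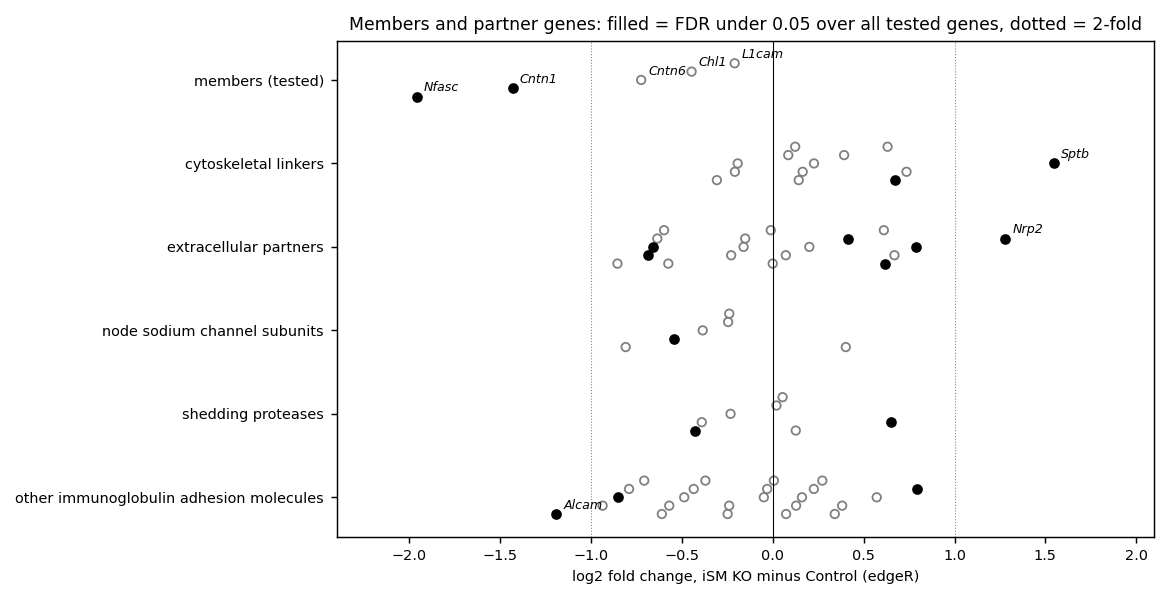
Log2 fold change (iSM KO minus control, edgeR) of the 5 tested members and of the 69 tested partner and related genes, by list; filled points have an FDR below 0.05 over all 16565 tested genes, and dotted lines mark a 2-fold change. Nfasc at -1.96 and Cntn1 at -1.43 lie left of every partner or related gene. Sptb at 1.55 and Nrp2 at 1.28 lie farthest right, and 55 partner and related genes are open points.

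Markers of the cells in which these molecules are best known were low. The 14 Schwann cell markers summed to 40.94, 30.25 and 33.25 CPM in controls and 31.39, 31.65 and 35.82 in iSM KO, overlapping groups, and none of the 9 tested passed. Prx and Scn7a made up most of that sum, while the defining gene Sox10 was low (0.421 ± 0.0981 CPM in controls, 0.470 ± 0.159 in iSM KO, SD, n = 3). Neuron and axon markers summed to 9.392, 7.693 and 8.711 CPM in controls and 8.283, 10.30 and 19.52 in iSM KO, with 3 of the 15 (Chat, Dbh and Chrna3) at 0 in each library. Only 1 of the 6 tested passed, Tubb3, which rose from 1.49 ± 0.139 to 4.20 ± 1.09 CPM (edgeR FDR 0.00622), and Stmn2 was the other most abundant (log2 fold change -0.63, edgeR FDR 0.387).

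Other cell markers moved with the groups. Adipocyte markers summed to 32.47, 213.6 and 143.9 CPM in controls and 13.85, 10.27 and 16.38 in iSM KO. Of the 7 tested 6 fell (Adipoq, Cfd, Cidec, Fabp4, Pck1 and Plin1), and Fabp4 alone passed in 6 of 6 fits that left out a library. The others lost their call without iSM KO 1, without iSM KO 2 and with limma (voom). Cidec, Pck1 and Plin1 also lost it without control 2 and without control 3, and Cidec and Pck1 without iSM KO 3. Control 1 had the lowest adipocyte sum of the controls and an Nfasc level of 17.1 CPM, between the other controls. Fibroblast markers summed to 1126, 1159 and 1348 CPM in controls and 830.7, 813.2 and 854.5 in iSM KO. Of the 8 fibroblast markers 1 fell, Clec3b (log2 fold change -1.56, edgeR FDR 0.0348, kept in 2 of 6 fits, without control 2 and without iSM KO 3), and the most abundant, Col1a1 and Dcn, did not pass. Col1a1 made up most of the fibroblast sum, at 752.3, 964.5 and 1076 CPM in controls and 688.4, 656.1 and 632.6 in iSM KO. Pi16 and Clec3b were also apart between the groups, whereas Cd34, Dcn, Dpt, Pdgfra and Lum overlapped. The adipocyte and fibroblast sums separate the groups as Nfasc, Cntn1 and Cntn6 do, and their part in those differences was not tested.

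L1cam and Chl1 varied among libraries beside markers of other kinds. Endothelial markers summed to 895.0, 1032 and 543.6 CPM in controls and 302.9, 497.3 and 805.6 in iSM KO. L1cam too was lowest in iSM KO 1, with low values in control 3 and iSM KO 2 and high ones in controls 1 and 2 and in iSM KO 3. None of the 8 endothelial markers passed, the most abundant being Vwf (log2 fold change -0.72, edgeR FDR 0.310) and Pecam1 (-0.61, edgeR FDR 0.368). Macrophage markers, led by Lyz2 and Csf1r, summed to 31.01, 26.69 and 26.30 CPM in controls and 11.08, 10.99 and 30.35 in iSM KO, and 0 of 6 passed. Chl1 was likewise low in iSM KO 1 and 2 and high in iSM KO 3, the library with the highest neuron and axon sum. Among the iSM KO libraries, iSM KO 3 also had the highest Schwann, fibroblast, endothelial, adipocyte and macrophage sums. A high value in iSM KO 3 is therefore not particular to any of these lists. In iSM KO 2 the neuron and axon sum (10.30 CPM) was above all controls, whereas Chl1 was below all of them. The part of these cells in the L1cam and Chl1 values was not tested.

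**Figure D4:**
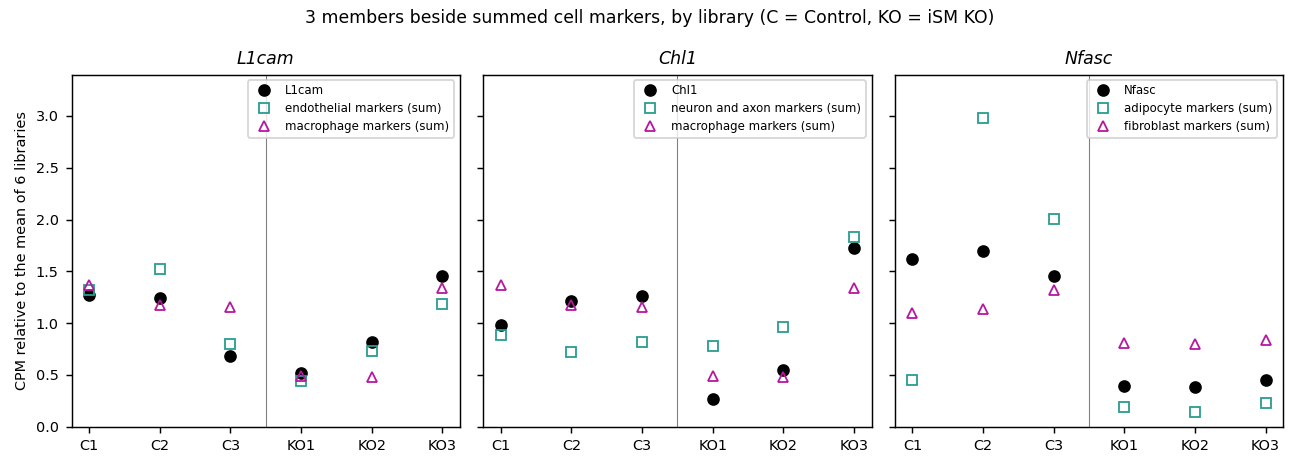
L1cam, Chl1 and Nfasc (black points) and summed cell markers (open symbols) in each library, each divided by its own mean over the 6 libraries (C control, KO iSM KO). L1cam and the endothelial sum are both lowest in KO1, and Chl1 and the neuron and axon sum are both highest in KO3. Among the iSM KO libraries, KO3 also has the highest endothelial, macrophage, adipocyte and fibroblast sums. Nfasc is nearly level within each group. The adipocyte sum ranges from 32.47 to 213.6 CPM among controls and from 10.27 to 16.38 in iSM KO. The fibroblast sum ranges from 1126 to 1348 CPM among controls and from 813.2 to 854.5 in iSM KO.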

How the data were processed

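Total RNA of 6 mouse aortas was depleted of ribosomal RNA and sequenced as paired-end reads by the authors, who mapped and quantified them against an Ensembl mm10 reference with Illumina DRAGEN. The values deposited by the authors are expected counts per gene, that is, estimated counts from that quantification, neither normalized nor filtered, and 10.9 to 12.2% of them are not whole. The strand setting and the sharing of reads between similar genes are not given in the sources used here. All columns were matched to samples by name. The members, lists and tests were chosen with earlier results of these data known.

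Counts were rounded, genes were kept where each library of one or both groups had more than 10 counts, and groups were compared with edgeR 4.0.16 in R 4.3.3 (TMM, quasi-likelihood test, Benjamini-Hochberg over 16565 genes). Genes were called at an FDR below 0.05 and a fold change over 2. Alternatives were DESeq2 1.42.0, limma 3.58.1 (voom), DESeq2 size factors, other filters, a replicate block and leaving out each library. Named were the members, Prdm16 and the 5 genes nearest to Nfasc. So were the called and the 3 most abundant genes of each partner or related list (2 for marker lists). Others were named after their values were seen, and some listed genes are not reported here by name. With 3 against 3 libraries an exact permutation test cannot give a p below 0.1, so none was run. Depth limits genes with under 3 counts, and this covers counting error only. Lengths, positions and coding bases came from GENCODE M21 (GRCm38), the same build as mm10.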

Additional observations from a re-analysis of the deposited data

How the results depend on the processing

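Nfasc met the call rule under each of 12 alternatives to the edgeR fit, which its selection on this contrast makes no evidence of stability. Cntn1 lost its call with the replicate block, which left 1 member called and 1 with an FDR below 0.05, and in 4 of 6 fits without a library. Leaving out a library gave 1 to 2 members called and 1 to 3 with an FDR below 0.05. In the same fits 4 to 7 partner and related genes were higher and 4 to 9 lower. The Nfasc log2 fold change was then -2.04 to -1.91 and the Nfasc level 1.15 to 1.23 CPM per kilobase. Replicate numbers were treated as names only. Same-numbered libraries had correlations of deviations of -0.132, -0.0455 and -0.107, which with 3 libraries per group cannot decide whether the numbers mark pairs. Over all genes the block called 188 higher and 165 lower. Without a filter on low counts 30712 genes were tested and 11 partner and related genes were lower in place of 6. Members with an FDR below 0.05 numbered 3 with DESeq2, Cntn6 being added. With the longest transcript as length the control level of Nfasc was 1.72 CPM per kilobase. The cause of these shifts was not tested. In the fits that left out a library, the smaller number of libraries was not separated from the library removed. Depth limits Nrcam, Cntn2, Cntn3, Cntn4 and Cntn5, which did not pass the filter of more than 10 counts with all 6 libraries.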
